A study of Mus musculus with 23 samples.

Results

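Adipokines are hormones, enzymes and carrier proteins that fat cells release. The 10 genes described here, Adipoq, Retn, Lep, Cfd, Agt, Apln, Rarres2, Nampt, Rbp4 and Angptl4, were taken by symbol from a table of 24029 genes, and all 10 were in it. They were read in the 6 RNA libraries of the series. The libraries came from C3H10T1/2, an established mouse line of strain C3H that is labelled a mesenchymal stem cell. All cells were seeded at 70% confluency in medium with 10% Fetalclone III serum and received 8.3 nM human recombinant BMP7, a growth factor, for 3 days. Day 0 libraries come from such pre-adipocytes. For day 7, mature adipocytes, cells were then given 5 uM DEX, 0.5 mM IBMX, 0.12 ug/ml insulin, 1 uM Rosi and 1 nM T3 from day 0 to day 2, and insulin, Rosi and T3 alone to day 7. Each day has 1 library made by a standard procedure (oligo(dT) selection of mRNA, then random hexamer priming) and 1 made by TELP under the label N9. TELP libraries of day 7 also include N9_ss and T18. None of the terms N9, ss, T18 and TELP is explained in the labels, and nothing there says that libraries of the same day came from separate cultures. The line is grown in a dish without the vessels, nerves and immune cells of fat tissue.

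Adiponectin (Adipoq), resistin (Retn) and leptin (Lep) are the classical protein hormones of fat. Adiponectin raises insulin sensitivity, resistin opposes insulin in mice, and leptin tells the brain how much fat is stored. The transcription factors PPARG and C/EBP alpha switch on many genes of this group as a preadipocyte becomes a fat cell. The remaining genes act on complement, blood pressure, immune cell migration, NAD, vitamin A transport and blood triglycerides, and several are also made in liver.

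Promoter windows from RefSeq (build GRCm38.p6, not the build of the expression table) were at hand for 8 of the 10 genes, in 9 windows, since Rbp4 has more than 1 start. A window spans 250 bases before a start and 50 after it. Those of Adipoq, Retn and Cfd are shown because these genes went from near or at 0 to high levels, and that of Lep because it was listed at 0 throughout. The Adipoq stretch is chr16:23146286-23146535, the Retn stretch chr8:3655520-3655769, the Cfd stretch chr10:79890603-79890852 and the Lep stretch chr6:29059971-29060220, all on the plus strand and ending at the base before the start. Capitals mark matches to any of 4 motifs on either strand, and no matches overlapped.
Adipoq: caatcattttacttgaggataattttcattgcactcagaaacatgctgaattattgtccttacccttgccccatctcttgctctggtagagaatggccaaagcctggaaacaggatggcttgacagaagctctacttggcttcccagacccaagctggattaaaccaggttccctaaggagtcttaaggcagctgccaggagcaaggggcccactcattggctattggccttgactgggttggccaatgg
Retn: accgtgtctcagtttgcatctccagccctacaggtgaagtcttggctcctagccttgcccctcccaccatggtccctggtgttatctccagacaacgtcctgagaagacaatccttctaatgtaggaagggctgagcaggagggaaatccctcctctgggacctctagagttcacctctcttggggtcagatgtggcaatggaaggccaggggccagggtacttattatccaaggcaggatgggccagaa
Cfd: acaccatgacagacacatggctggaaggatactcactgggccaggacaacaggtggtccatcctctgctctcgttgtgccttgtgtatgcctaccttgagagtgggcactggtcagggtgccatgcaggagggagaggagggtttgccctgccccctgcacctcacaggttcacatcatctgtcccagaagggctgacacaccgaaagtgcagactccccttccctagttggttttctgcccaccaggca
Lep: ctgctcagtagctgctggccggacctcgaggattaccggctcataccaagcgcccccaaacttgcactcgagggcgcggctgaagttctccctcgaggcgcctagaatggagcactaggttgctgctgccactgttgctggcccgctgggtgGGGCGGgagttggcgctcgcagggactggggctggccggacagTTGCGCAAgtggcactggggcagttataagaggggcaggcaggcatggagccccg

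The motifs were TTNNGCAA, a C/EBP type of site, AGGTCA, the core of many nuclear receptor sites, TATAAA, the TATA box, and GGGCGG, the GC box. Of 32851 promoter windows of the same length, 10.8% held the first, 16.3% the second, 13.6% the third and 35.7% the fourth. The windows of Adipoq, Retn and Cfd held none of the 4. Lep held TTNNGCAA from 55 bases before the start and GGGCGG from 98 bases before it. Agt held TATAAA from 30 bases before its start. Of the 2 Rbp4 windows 1 held TTNNGCAA, TATAAA and 2 copies of GGGCGG, and the other held no match. Nampt held 5 copies of GGGCGG and 1 AGGTCA, and Apln 1 GGGCGG. A match is a description of letters, and a window without one says nothing about binding elsewhere. Rarres2 and Angptl4 were not matched to a window.

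The values are the authors' RPKM, reads scaled to gene length and library depth, so levels of different genes can be set side by side. Estimated from the steps between low values, 1 RPKM over 1 kb rests on 14.4 and 14.2 reads in the standard day 0 and day 7 libraries and on 22.6 reads in TELP N9 day 0. It rests on 4.75 to 5.75 reads in the TELP day 7 libraries, whose low values are thus the least precise. N9_ss shares most of its low values with N9, as given with their comparison, so its values are listed but do not count as a further library. No group has a second library, so no level or difference below has a replicate error, and neighbours in an order of levels cannot be said to differ. An exact 0 can be a failed estimate, which was not tested. Of 80 genes picked by a cytosolic ribosomal protein symbol, between 1 and 4 were listed at 0 in each library. Such symbols can include copies that not every cell uses, so these zeros do not settle it. Adipocyte markers (Fabp4, Plin1, Cidec, Lipe, Pparg and Cebpa) summed to 39.9 and 31.1 RPKM at day 0 and to 12004 and 28381 at day 7 in the standard and TELP N9 libraries. Preadipocyte markers (Dlk1, Pdgfra, Pdgfrb, Cd34 and Thy1) summed to 219 and 203 RPKM at day 0, and at day 7 to 150 (standard) and 23.5 (TELP N9). In bulk RNA, fewer cells of a type and less RNA per cell cannot be told apart.

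**Figure D1:**
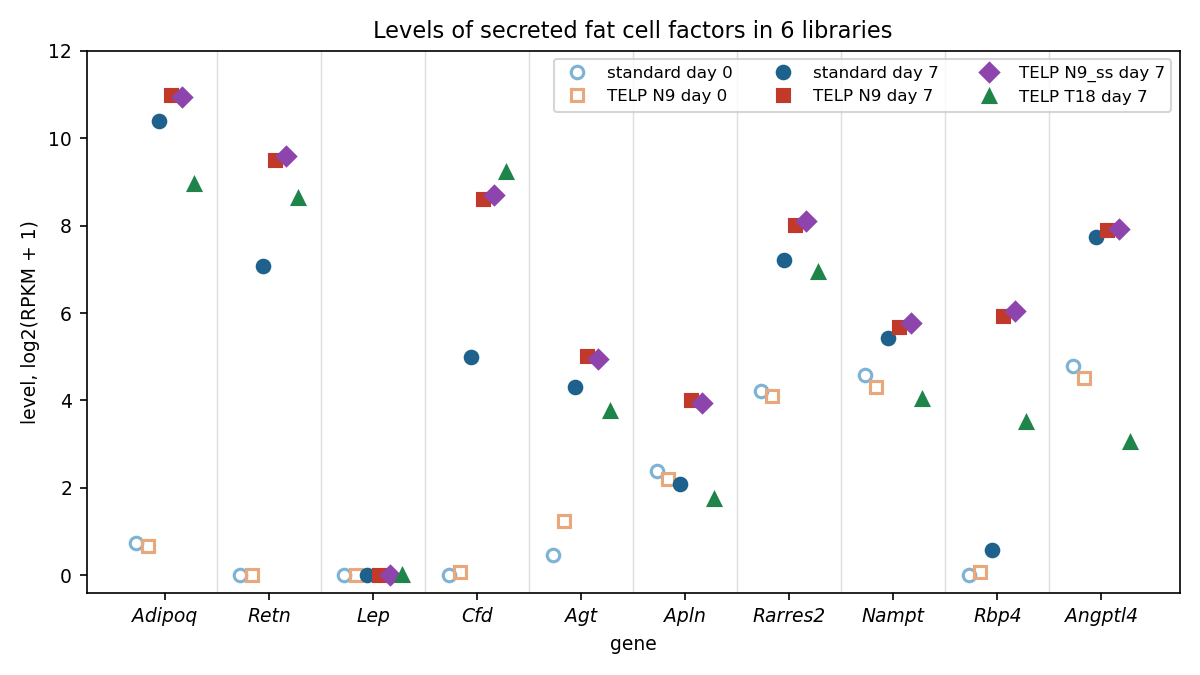
Levels of the 10 genes on the scale log2(RPKM + 1), with 1 point per library. Open symbols are day 0 and filled symbols day 7. Adipoq stands highest at day 7 in the standard, N9 and N9_ss libraries, Lep is at 0 in all 6, and Rbp4 is high in the TELP day 7 libraries but at 0.485 RPKM in standard day 7.

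The first question was how adipocytes differed from pre-adipocytes. As a group the secreted factors were higher at day 7. In standard libraries their summed RPKM was 72.7 at day 0 and 1925 at day 7, which is 0.021% and 0.564% of all RPKM. In TELP N9 they summed to 62.9 and 3780, or 0.0154% and 0.647%. Calls were made where values on the log2(RPKM + 1) scale differed by 1 or more, among genes whose mean reached 1 RPKM in the libraries compared. This scale understates the change of low genes.

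In the standard libraries 8 of the 10 genes passed that filter, 6 were called higher and 0 lower, where 8.22% of all 11312 genes kept were called higher and 6.53% lower. In TELP N9 9 passed and all 9 of these were higher, against 13.9% higher and 29.9% lower of 11360 genes. Called higher in both library types were Adipoq, Retn, Cfd, Agt, Rarres2 and Angptl4, with 7.23% of 11474 genes so called and 5.81% lower. Genes that pass only through their day 7 level had to differ, and Adipoq, Retn and Cfd are of that kind, as are Agt in the standard and Rbp4 in the TELP N9 pair. Scaling moved the balance of all genes: 55.7% of calls were higher in the standard pair and 68.8% under median of ratios, and 31.8% in the TELP N9 pair and 52.1% under median of ratios or 49.6% under quantile normalization. In both types together it was 55.4% and 68.6%. No called day difference of a secreted factor changed sign under the other scalings.

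With library type as a block over these 4 libraries, limma called 162 of 11474 genes (1.41%) higher at an adjusted p of at most 0.05. Among the 9 secreted factors fitted, 5 were past it: Adipoq, Retn, Agt, Rarres2 and Angptl4. Without a trend of the variance on the mean, limma passed 3 of them, Adipoq, Retn and Agt. The share of all genes passed without the trend is not given here, so this count has no background. With 1 residual degree of freedom, the spread behind these p-values lies between library types, not between cultures.

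**Figure D2:**
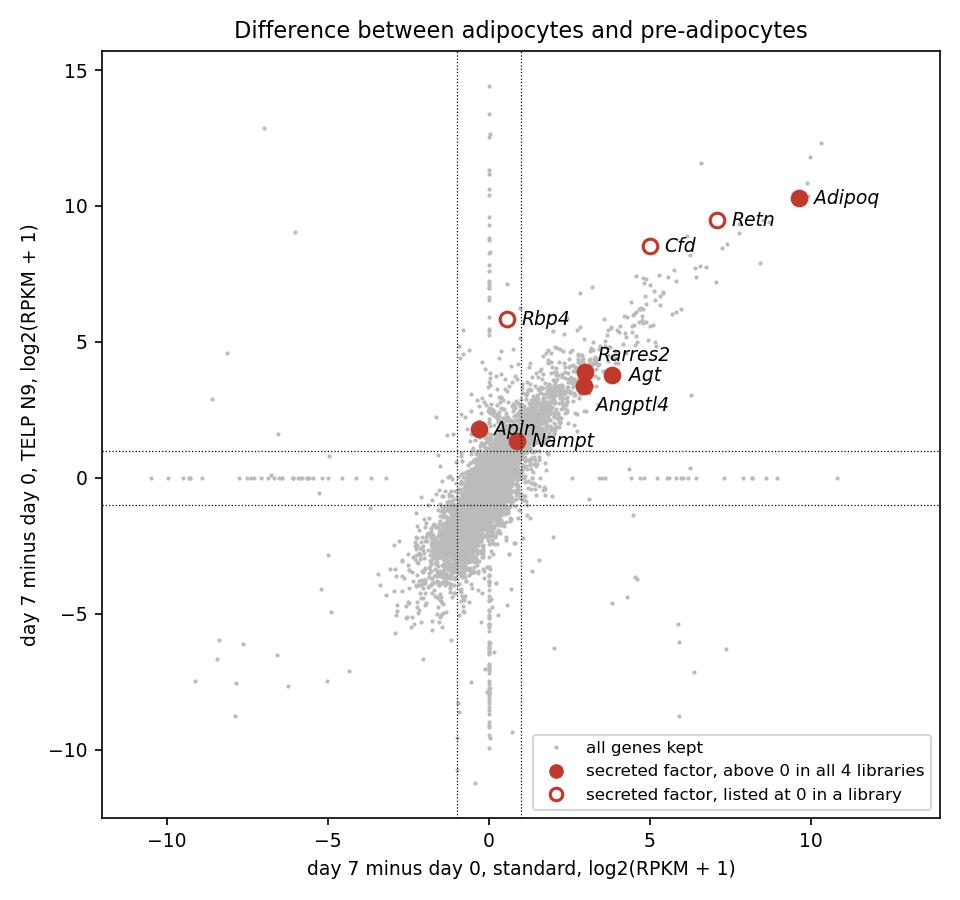
Day 7 minus day 0 on the log2(RPKM + 1) scale in the standard libraries (horizontal) and in TELP N9 (vertical). Grey points are the 11474 genes kept, red points the secreted factors, and dotted lines mark differences of 1. Open red points are genes listed at 0 in a library, whose place depends on the 1 RPKM added. Adipoq lies far out in both directions, while Rbp4, Apln and Nampt lie above 1 in TELP N9 but not in the standard pair.

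Among the classical hormones, Adipoq had the highest RPKM of the 10 genes in standard, N9 and N9_ss adipocytes, and came after Cfd in T18. It was at 0.675 and 0.601 RPKM in standard and TELP N9 day 0, and at 1335, 2018, 1961 and 491 in standard, N9, N9_ss and T18 day 7. Every day 7 library lay far above both day 0 libraries. The day difference was 9.64 log2 units (standard) and 10.30 (TELP N9), and limma gave 9.97 with a standard error of 0.32 (adjusted p = 0.00903). Its rank among all 24029 genes was 12 in standard and 29 in TELP N9 adipocytes. It made up 69.3% of the summed RPKM of the 10 genes in standard day 7, 53.4% in TELP N9 and 29.6% in T18.

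Retn had a listed 0 in the day 0 libraries of both types, against 134 RPKM in standard, 721 in N9, 774 in N9_ss and 397 in T18 day 7. Its rank among all genes was 400 in standard day 7 and 77 in N9. No fold is given against libraries listed at 0. Limma put its adjusted p at 0.0249. Retnla, Retnlb and Retnlg, the other genes of the resistin family, were listed at 0 in all 6 libraries.

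Lep was listed at 0 in all 6 libraries, in adipocytes as in pre-adipocytes, and passed no filter. At 1 RPKM over 1 kb a transcript would rest on 14.2 reads in standard day 7 and on 5.49 in TELP N9 day 7. Lepr, the leptin receptor, was under 0.25 RPKM in every library, with 0.174 and 0.234 RPKM at day 0 and 0.11 and 0.00378 at day 7 in the standard and TELP N9 libraries.

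Cfd encodes complement factor D, also called adipsin, the protease that starts the alternative complement pathway by cutting factor B. It was listed at 0 in standard day 0 and was at 0.0611 RPKM in TELP N9 day 0, which would be 1 read if its counted length is 725 bases. At day 7 it stood at 31.0 RPKM in standard, 390 in N9, 417 in N9_ss and 600 in T18. All day 7 libraries lay above day 0, and the TELP libraries above the standard one. The TELP N9 difference was 8.53 log2 units, and it did not pass limma (adjusted p = 0.0554). Of its partner genes none was called higher. C3, the central complement protein, differed by -0.18 (standard) and 0.05 (TELP N9) log2 units, and Cfb, factor B, by -0.67 and -0.82.

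Agt encodes angiotensinogen, the precursor of the vasoconstrictor angiotensin II. It was at 0.382 and 1.35 RPKM in standard and TELP N9 day 0, and at 18.7, 31.2, 30.1 and 12.6 in standard, N9, N9_ss and T18 day 7. The standard, N9 and T18 adipocyte libraries lay above both pre-adipocyte libraries. The difference was 3.84 (standard) and 3.78 (TELP N9) units (limma, adjusted p = 0.0264). With 0.1 RPKM added in place of 1, it was 5.29 and 4.43. Enzyme and receptor genes of this pathway stood at different levels. Atp6ap2, the prorenin receptor, had 46.6 and 54.1 RPKM at day 0 and 37.9 and 21.4 at day 7, with differences of -0.29 (standard) and -1.30 (TELP N9) units. Enpep, a peptidase that trims angiotensin II, differed by -0.88 and -0.52 units and was at or under 3.61 RPKM. Ren1, renin, which can share reads with close copies, had 3.08 (day 0) and 0.0578 (day 7) RPKM in the standard pair, and 3.51 and a listed 0 in TELP N9. Agtr2, an angiotensin II receptor, was called lower, at -1.68 and -2.41 units, while Ace, Agtr1a, Agtr1b and Mas1 were under 1 RPKM in every library.

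Apln encodes apelin, a peptide that widens vessels and strengthens the heartbeat. It was at 4.27 and 3.61 RPKM in standard and TELP N9 day 0, and at 3.25, 15.0, 14.4 and 2.35 in standard, N9, N9_ss and T18 day 7. In RPKM, N9, with N9_ss, stood apart, and standard and T18 day 7 lay below both day 0 libraries. By rank among all genes T18 (4137) stood nearer to N9 (3579) than to standard day 7 (9125). The day 0 ranks were 8548 (standard) and 9156 (TELP N9). The difference was -0.31 units in the standard pair and 1.79 in the TELP N9 pair. Limma gave 0.74 with a standard error of 0.59 (adjusted p = 0.424). Aplnr, its receptor, was at 0.062 and 0.105 RPKM at day 0 and listed at 0 in all day 7 libraries.

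Rarres2 encodes chemerin, a secreted chemoattractant for immune cells that also acts on fat cells. It was at 17.7 and 16.3 RPKM in standard and TELP N9 day 0, and at 148, 258, 274 and 122 in standard, N9, N9_ss and T18 day 7. The days did not overlap. It was higher by 2.99 and 3.90 units (limma, adjusted p = 0.0419). Cmklr1, the signalling receptor of chemerin, was called lower, at -1.31 and -1.72 units, from 4.66 to 1.28 RPKM in the standard and from 5.70 to 1.03 in the TELP N9 libraries (limma adjusted p = 0.125). Ccrl2, which binds chemerin at the cell surface, was at or under 0.116 RPKM everywhere, and Gpr1 was listed at 0 in every library.

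Nampt makes nicotinamide mononucleotide, the rate-limiting step in recycling NAD, and is also released by fat cells. It was at 22.9 and 18.9 RPKM in standard and TELP N9 day 0 and at 42.3, 50.5, 53.6 and 15.4 in standard, N9, N9_ss and T18 day 7. The T18 value lay below both day 0 values, so the days overlapped in RPKM. By rank among all genes they did not: Nampt stood at 920 in T18, against 2887 and 3482 in standard and TELP N9 day 0. The difference was 0.86 units in the standard pair, short of a call (median of ratios gave 1.05), and 1.37 for TELP N9. Limma did not pass it (adjusted p = 0.136). Of the enzymes that act next in NAD synthesis, Nmnat1 was called higher by 2.03 and 1.63 units and Nmnat2 lower at -1.14 and -3.30, and neither passed limma (adjusted p = 0.0902 and 0.136).

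Rbp4 encodes the plasma carrier of retinol, made by liver and fat. It was listed at 0 in standard day 0, at 0.0607 RPKM in TELP N9 day 0 and at only 0.485 in standard day 7. In the TELP day 7 libraries it was at 60.0 in N9, 65.3 in N9_ss and 10.4 in T18. N9 and T18 thus lay far above the standard and day 0 libraries. The TELP N9 difference was 5.85 units, and the gene was under the filter in the standard pair. Limma did not pass it (adjusted p = 0.203). Ttr, which carries RBP4 in blood, was listed at 0 in all libraries, and Stra6, the RBP4 receptor, was under 0.18 RPKM. Hepatocyte markers (Alb, Apoa1, Apoa2, Serpina1a and Fgb) summed to at most 0.815 RPKM in any library, and Alb and Apoa1 were listed at 0 in all 6.

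Angptl4 encodes a secreted inhibitor of lipoprotein lipase, the enzyme that frees fatty acids from blood triglycerides. It was at 26.8 and 22.0 RPKM in standard and TELP N9 day 0 and at 213, 237, 240 and 7.28 in standard, N9, N9_ss and T18 day 7. In RPKM the T18 library lay below day 0, and the standard and N9 adipocyte libraries lay well above it. The difference was 2.94 (standard) and 3.37 (TELP N9) units (limma, adjusted p = 0.038). With T18 in place of N9 it was called lower instead, the 1 member called so. The share of all genes called lower in that swap is not given here. T18 minus N9 had a median of -1.77 units over all genes kept. By rank among all genes Angptl4 stood at 1732 in T18, against 2470 and 3044 in standard and TELP N9 day 0. In standard and N9 day 7 its rank was 224 and 294, so T18 lay well behind these adipocyte libraries. The lower call thus holds for RPKM and not for rank. Lpl, the lipase itself, was higher by 8.52 and 9.47 units, from 2.75 to 1375 RPKM and from 1.91 to 2064 (limma adjusted p = 0.00994). Gpihbp1, which holds the lipase at the vessel wall, was listed at 0 in every library.

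Related genes were called in both directions. Of 13 receptor genes all were in the table and 5 passed the filter over the standard and TELP N9 libraries. Adipor2, an adiponectin receptor, was the 1 called higher in both types, by 3.39 and 4.15 units (limma adjusted p = 0.0312), and Cmklr1 and Agtr2 were the 2 called lower, where 7.23% and 5.81% of all genes were. Adipor1, the other main adiponectin receptor, differed by -0.09 and 0.48, and Cdh13, a cell surface adiponectin binder, by 0.20 and -1.52. The median of these 5 was -0.09 (standard) and -1.52 (TELP N9), where the median of all genes kept was -0.17 and -0.46.

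Of 20 genes that process or partner these factors, 13 passed the filter, 2 were called higher in both types (Lpl and Nmnat1), 3 lower (Ren1 and Nmnat2 among them) and 8 neither, where 7.23% of all genes kept were higher and 5.81% lower. Their median, without Ren1 which was listed at 0 in a library, was -0.26 and -0.37, against -0.17 and -0.46 for all genes. Ren1 passed the filter only through its day 0 levels, so it had to differ. Ero1l, an oxidase of the endoplasmic reticulum that helps release adiponectin, differed by 0.89 (standard) and 4.20 (TELP N9) units, and Erp44, which holds adiponectin back, by -0.40 and -1.17. Gstk1, which promotes adiponectin assembly, was listed at 0 in every library.

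Of 35 other secreted factors 17 passed the filter, 4 were called higher in both types and 3 lower, beside the same 7.23% and 5.81% of all genes. Among the higher genes were Fam132a, a C1q/TNF family hormone like adiponectin (1.93 and 4.60 units), Vegfa, a vessel growth factor (1.34 and 2.80), and Fgf21. Fgf21, a hormone that raises energy use, was listed at 0 at day 0 and stood at 4.74 and 23.5 RPKM at day 7. Fgf21 and Fam132a (0.435 and 0.474 RPKM at day 0) passed the filter only through their day 7 levels, so they had to differ. The lower genes were C1qtnf6 (-1.33 and -3.52), Adm, the vasodilator adrenomedullin (-1.07 and -1.93), and the chemokine Ccl2. None of the genes named here passed limma, with adjusted p between 0.0868 and 0.138. Without genes listed at 0, the median of 13 was -0.20 (standard) and -1.48 (TELP N9), against -0.17 and -0.46 for all genes.

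The families of the members split. Among C1q/TNF genes, C1qtnf1 differed by -0.50 and -2.53 units and C1qtnf5 by -0.20 and -3.35, while Fam132a was higher. C1qtnf2, C1qtnf3, C1qtnf4, C1qtnf7 and C1qtnf9 were under 1 RPKM in every library. Among angiopoietin-like genes, Angptl1 and Angptl2 differed by -0.81 and -0.83 units in the standard and by -4.71 and -2.12 in the TELP N9 pair. Gm6484, listed as the older symbol of Angptl8, a partner in lipase inhibition, was listed at 0 at day 0 and was at 0.639, 10.4, 10.2 and 1.90 RPKM in standard, N9, N9_ss and T18 day 7. Angptl6 reached 2.06 RPKM in N9 day 7, and Angptl7 stayed under 0.2 RPKM in every library.

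**Figure D3:**
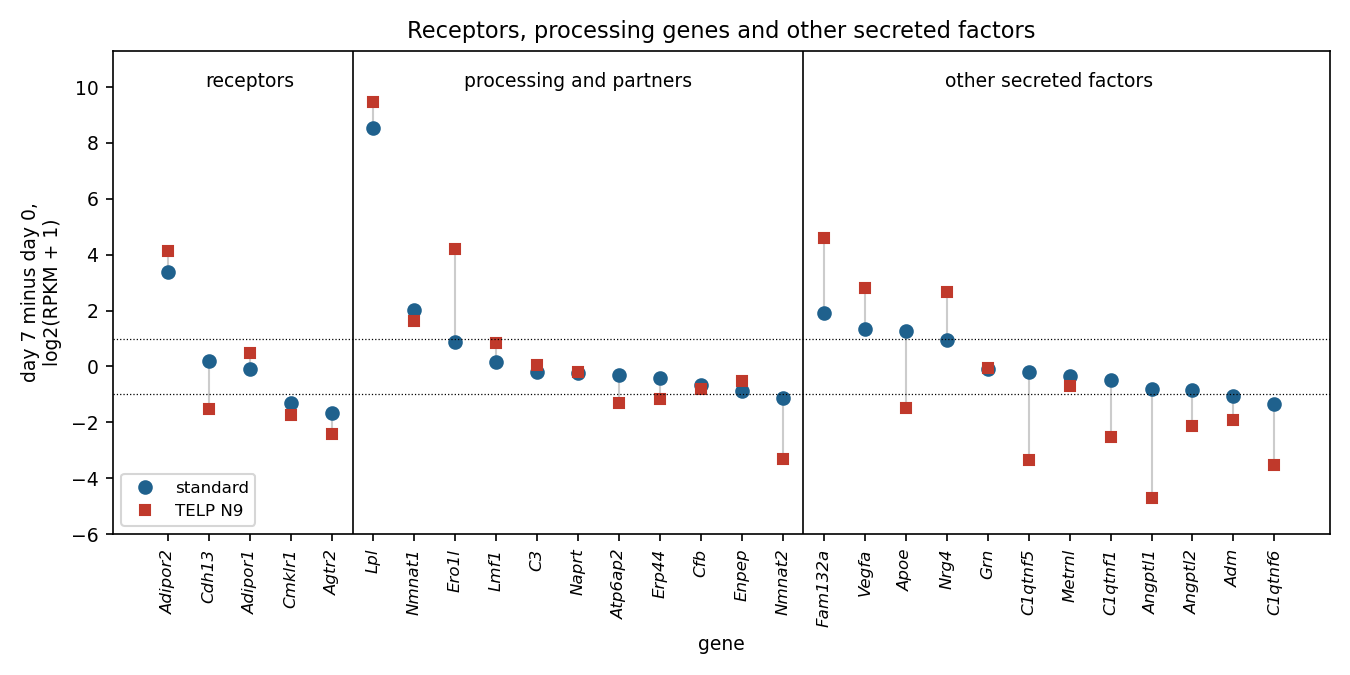
Day 7 minus day 0 on the log2(RPKM + 1) scale for receptors, processing genes and other secreted factors described here that passed the filter and were above 0 in the libraries compared. Blue points are the standard pair, red squares the TELP N9 pair, and dotted lines mark differences of 1. Lpl at 8.52 and 9.47 and Adipor2 at 3.39 and 4.15 lie highest in their lists, and Apoe lies on opposite sides in the library types at 1.28 and -1.48.

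The second question was whether the library types gave the same levels. This comparison uses the libraries of the first, so the results are not independent of it. At day 0 the members that could be compared were close. Rarres2, Nampt, Angptl4 and Apln passed the filter, with differences of TELP N9 minus standard of -0.11, -0.26, -0.27 and -0.19 log2 units. None was called, where 2.2% of all 11277 genes kept were higher and 0.718% lower. Agt, under the filter at 0.382 and 1.35 RPKM, differed by 0.77.

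At day 7, 4 of the 9 genes kept were called higher in TELP N9 and 0 lower, against 7.51% and 17.0% of 11044 genes. Rbp4 passed the filter only through TELP N9, so it had to differ. With T18 in place of N9, 6 were called, 3 higher and 3 lower. The share of all genes so called with T18 is not given here, so this count has no background. T18 minus N9 had a median of -1.77 units over all genes kept. In N9, Rbp4 was higher by 5.36 units, Cfd by 3.61, Retn by 2.42 and Apln by 1.91. Only 39 of these genes had a difference as large as that of Rbp4 or larger, Rbp4 included, and 55 as large as that of Cfd. Rarres2 at 0.80, Agt at 0.71, Adipoq at 0.60, Nampt at 0.25 and Angptl4 at 0.15 were not called, and Adipoq stood at -1.08 under quantile normalization. The median of all genes was -0.23. The share of calls that were higher was 30.7%, and 47.8% under median of ratios, 49.2% under quantile normalization and 17.3% under equal totals.

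The difference between the days therefore differed with library type for some genes. TELP N9 minus standard, this second difference was 2.10 units for Apln, 0.91 for Rarres2, 0.66 for Adipoq, 0.51 for Nampt, 0.42 for Angptl4 and -0.06 for Agt, with a median of -0.27 over 11474 genes. The value for Agt, low at day 0, depends on the 1 RPKM added. With 0.1 RPKM added instead, its day differences were 5.29 (standard) and 4.43 (TELP N9). The second differences were not tested, since each pair holds 1 library a day. Adipocyte markers moved the same way, with 4 of 6 called higher in TELP N9 at day 7 and a median of 1.22. Preadipocyte markers had a median of -2.06, with 4 of 4 kept called lower. Their part in the result was not tested. Macrophage and leukocyte markers (Emr1, Cd68, Ptprc, Csf1r and Lyz2) summed to 1.98 (standard) and 4.70 (TELP N9) RPKM at day 7, all of the latter from Cd68, with Emr1 at 0 in both. Endothelial markers (Pecam1, Cdh5, Kdr and Tek) summed to 1.4 RPKM in standard day 7 and were listed at 0 in N9.

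**Figure D4:**
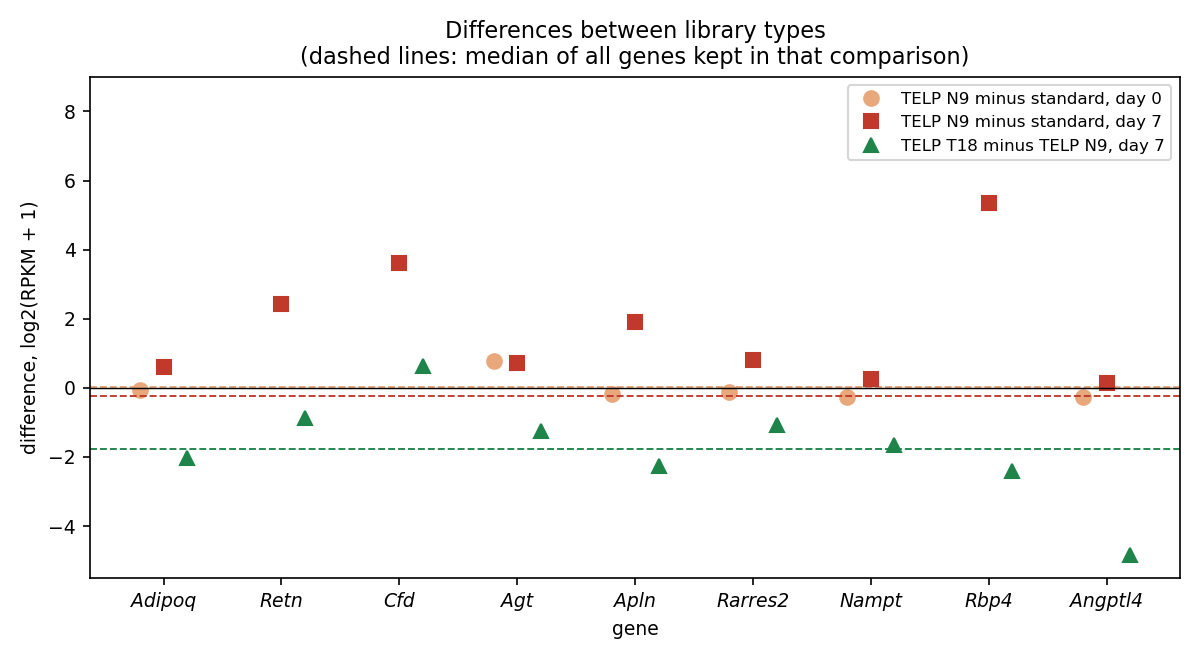
Differences between library types on the log2(RPKM + 1) scale for the 9 genes above 0 at day 7, with points left out where a library is listed at 0. Dashed lines give the median of all genes kept in each comparison (0.01, -0.23 and -1.77). Rbp4, Cfd, Retn and Apln stand highest in TELP N9 minus standard at day 7, and Angptl4 lowest in T18 minus N9.

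In T18 the order of the genes was another. Cfd was highest at 600 RPKM, followed by Adipoq at 491, Retn at 397 and Rarres2 at 122, and Angptl4 at 7.28 came after Nampt, Agt and Rbp4. The 10 genes with most RPKM held 79.8% of the T18 total against 32.8% in N9, and 83.4% of 9753 genes were called lower in T18 and 0.841% higher. Against that background 7 of the 9 members kept were lower and 0 higher. The median of all genes was -1.77, so differences are also given relative to it. Cfd, at 0.62 units, lay 2.39 above that median, with 117 genes as high or higher. Retn (-0.86) lay 0.91 above it, Rarres2 (-1.08) 0.69, Agt (-1.25) 0.52 and Nampt (-1.65) 0.11. Adipoq (-2.04), Apln (-2.25) and Rbp4 (-2.42) lay at -0.27, -0.49 and -0.65 from it. Angptl4, at -4.84, lay at -3.08, and 0.564% of genes were lower.

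Scaling decides most of these directions. Agt, Rarres2, Nampt and Retn changed sign under each of 3 scalings, namely quantile normalization, equal totals without small noncoding RNAs and median of ratios, and Adipoq under the last. Cfd stayed higher and Angptl4, Apln and Rbp4 stayed lower under all of them. The share of calls that were higher was 0.999% as deposited, 43.2% under median of ratios, 48.9% under quantile normalization and 19.0% under equal totals.

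N9_ss and N9 gave nearly the same values. Differences of N9_ss minus N9 ranged from -0.05 units for Agt and Apln to 0.12 for Rbp4, none of 9 was called, and 0.0194% and 0.00968% of 10334 genes were called higher and lower. The columns share reads: of 3629 genes under 1 RPKM in N9 and above 0 in both, 83.5% had equal values per read within 0.1%. They were not used as replicates.

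Profiles of other genes were compared with those of the members over 5 libraries, leaving out N9_ss. The measure was the Euclidean distance between log2(RPKM + 1) values centred on each gene's mean, among 11020 other genes. Points share libraries and depth, and nearness says nothing of shared control. The 1 RPKM added damps the change of genes low at day 0, so these can lie near genes that changed by a smaller ratio. Lpl lay nearest to Adipoq at 1.04, then Fabp4 at 1.54 and Cd36 at 1.91, fat cell genes of lipid uptake. Retn had Ifi27l2a (1.71), Cox8b (1.76) and Adig (1.93) nearest. Retn itself was nearest to Cfd at 2.10, ahead of Thrsp (2.22) and Ifi27l2a (2.80).

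Agt and Rarres2 were alike on this scale at a distance of 0.72, and both had Tfrc, the transferrin receptor, nearest, at 0.66 and 0.34. In RPKM, day 7 over day 0 was 49.1 (standard) and 23.1 (TELP N9) for Agt, against 8.35 and 15.8 for Rarres2. For Rarres2, Rnf125 (0.40) and Fam83a (0.46) followed. Angptl4 lay nearest to Plin4, a lipid droplet coat gene, at 0.50, then 4931406C07Rik (0.59) and Acbd4 (0.77). Plin4 had 32.2, 24.4, 256, 291 and 5.69 RPKM in standard day 0, N9 day 0, standard day 7, N9 day 7 and T18. In RPKM Plin4 too thus lay below day 0 in T18. Nampt had Trmu (0.14), Tcaim (0.17) and Mrpl46 (0.21) nearest, and Apln had Dusp8 (0.19), Bsg (0.32) and 4930526I15Rik (0.48). Rbp4 had 2610528A11Rik (1.23), Ffar4 (1.39) and Apoo-ps (1.84), each high in TELP N9 day 7 and under 1 RPKM in standard day 7.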

How the data were processed

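RNA was read in 6 libraries, 1 per group, of the 23 samples in the series. Another 17 samples, of chromatin, were not analysed here. For 24029 genes the deposited values are RPKM computed by the authors. Bowtie2, TopHat, Cufflinks and the mm9 build are named per the submitters' processing notes, without roles or versions. Annotation, strand handling and the read total were not found in the sources used here, so reads of overlapping genes cannot be told apart.

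Computed from these were log2(RPKM + 1) differences, with a mean of at least 1 RPKM as filter and 1 as call threshold (Python 3.11.15, pandas 2.3.3, numpy 2.4.6). RPKM are not counts, so no count test was run. Limma 3.58.1 in R 4.3.3 fitted library type and day over 4 libraries across all genes kept, with a variance trend on the mean and Benjamini-Hochberg adjustment. The p-values measure the spread between library types, which may be technical. Calls and limma were tested on simulated data. These held no effect of library type, so they cannot show how either fares where the types disagree. Relative depth came from the commonest ratio of values under 0.3 RPKM, and going round the standard and N9 libraries returned 0.9999. Its absolute scale rests on 66 of 181 short genes, with 200 bases deducted from each length, and is approximate.

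The members and gene lists were chosen with earlier results of these data known. Named genes are all members, up to 6 called genes of each of 3 lists, relatives and receptors of members, and the 3 nearest profiles of each member, except a few genes that are not reported here. Alternatives were a pseudocount of 0.1, no filter, a filter at 5 RPKM, a call threshold of 2, 3 scalings, N9_ss or T18 in place of N9, and limma.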

Additional observations from a re-analysis of the deposited data

Results flagged for a closer look

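Apln drew attention because its day 7 minus day 0 difference had opposite signs in the library types, at 1.79 log2 units in TELP N9 and -0.31 in the standard pair. Each rests on 1 library a day, and the difference between them was not tested. TELP N9 minus standard also changed sign between the days for Apln (-0.19 at day 0 and 1.91 at day 7).

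The same change of sign between days was seen for Adipoq (-0.07 and 0.60), Rarres2 (-0.11 and 0.80), Nampt (-0.26 and 0.25) and Angptl4 (-0.27 and 0.15). At day 0 Adipoq was under the filter, at 0.675 (standard) and 0.601 (TELP N9) RPKM. These differences between days were not tested, and the values at day 7 change sign under quantile normalization for Adipoq and Angptl4 and under equal totals for Nampt and Angptl4.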

How the results depend on the processing

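Counts of members called at day 7 against day 0 stayed within 1.5 times the reported count under the filters, pseudocount, scalings, threshold of 2 and library swaps. These counts pool both directions: with T18 in place of N9, the 9 higher of the TELP pair became 6 higher and 1 lower. Leaving out genes listed at 0, chosen after seeing the data, gave 4 in the standard pair and 4 in both types. Limma with a variance trend passed 5 members, and without that trend, also chosen afterwards, 3 (Adipoq, Retn and Agt). The count without the trend is given without a share of all genes. The calls most open to processing are those of T18 minus N9, where 7 members were called. Median of ratios gave 4, equal totals (without small noncoding RNAs) 2, quantile normalization 2 and a threshold of 2 gave 4. Under median of ratios Adipoq, Agt, Rarres2 and Nampt turned to 0.16, 0.84, 1.11 and 0.47 log2 units. Under equal totals Agt, Rarres2 and Nampt stood at 0.43, 0.67 and 0.04, and under quantile normalization at 0.91, 0.77 and 0.52. These settings rescale whole libraries, and the cause was not tested beyond that. Of 188 alternative values of 47 single differences, 162 kept their call or lack of one, 8 lost a call with the same sign and 8 gained one. Another 10 that had been called changed sign, all of these 10 in T18 minus N9. Rarres2 at 1.11 is the 1 of those 10 that was called in the new direction. Among values that gained a call, Retn in T18 minus N9 went from -0.86 to 1.34 under median of ratios. Adipoq in TELP N9 minus standard at day 7 went from 0.60 to -1.08 under quantile normalization. Some uncalled differences changed sign and stayed uncalled. No paired analysis was possible because each RNA group holds 1 library and replicate numbers are given to chromatin samples alone, so the block in limma is library type and not a replicate number. TELP against standard at day 7 had 4 members higher, and with T18 in place of N9 3 higher and 3 lower. The T18 count is given without a share of all genes. Depth limits low values most in the TELP day 7 libraries, where 1 RPKM over 1 kb is about 5 reads.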

Other observations

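Rbp4 lies beside Ffar4, a fatty acid receptor gene, in the RefSeq gene order of GRCm38.p6, with no other gene of the table between them. The pair was chosen after its values were seen. Ffar4 had a listed 0 at day 0 in each type and was at 0.948 RPKM in standard day 7, 74.2 in N9, 72.5 in N9_ss and 3.53 in T18. Its TELP N9 minus standard difference at day 7 was 5.27 log2 units, against 5.36 for Rbp4. The next genes on either side differed less: Cep55 by -0.69 on the Ffar4 side, and on the Rbp4 side Pde6c was listed at 0 in every library and Fra10ac1 differed by 0.72.

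The genes that follow were also chosen after their values were seen. Apoe, a lipoprotein component of fat cells and macrophages, was at 50.1 and 123 RPKM at day 0 and day 7 in the standard pair and at 58.5 and 20.3 in TELP N9, and was at 24.2 in T18. Il6, a cytokine, was at 38.6 RPKM in TELP N9 day 0 and at 0.472 in standard day 0, and was listed at 0 in the TELP day 7 libraries. Nrg4, a growth factor of brown fat, differed by 0.96 and 2.65 log2 units between the days in the standard and TELP N9 pairs. Grn, a precursor of granulins, differed by -0.09 and -0.06 at levels of 140 and 165 RPKM at day 0.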
